A study of Mus musculus with 6 samples.

Results

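The 8 genes followed here through the expression arrays of LSC GFP+ and LSC GFP- cells are widely used to mark stem cells of the prostate and of other tissues. They were Cd44, Cd24a, Prom1, Epcam, Procr, Alcam, Abcg2 and Bmi1, and each was taken at every probe that carries its name in the array design, which gave 13 of the 55681 probes on the array. The probes of the whole array carry 36282 different names. Cells came from the prostates of male FVB/N mice of 6 days (P6) that carry the transgene 11.5kb-GFP, in which a promoter of 11.5 kb of the s-SHIP gene drives GFP. Prostate cells without the lineage markers Ter119, CD31 and CD45 and with Sca-1 and CD49f on their surface (LSC cells) were sorted by GFP, and 3 independent samples of each population were hybridized, 1 array per sample. Both populations therefore share the transgene, strain, age, sex and gate, and were parted by their GFP signal. The promoter is also active in vascular smooth muscle of the same gland. How many animals made up a sample was not given in the sources used here.

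CD44 is a transmembrane receptor for hyaluronan, a sugar polymer of the matrix, and its transcript is spliced into a standard form and many longer forms that contain variant exons. CD24 and EpCAM are adhesion molecules of epithelial cells, prominin 1 (CD133) sits in membrane protrusions, and ALCAM (CD166) is an adhesion molecule of the immunoglobulin family. The protein C receptor encoded by Procr and the drug efflux pump encoded by Abcg2 are used as stem-cell markers outside the prostate. Bmi1 encodes a nuclear subunit of the Polycomb complex PRC1, so it is a marker of self-renewal but not a surface protein, and the other 7 genes encode proteins of the cell surface. CD44, CD133, CD166 and CD49f have all been used to enrich prostate cells that form spheres or ducts.

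The results turn on 4 probes for Cd44 and 2 for Prom1. The array design places the Cd44 probes on the reverse strand of chromosome 2 (build mm9), and from the 5′ to the 3′ side of the gene they are A_55_P2166488 at chr2:102677971-102678030, A_55_P2166486 at chr2:102672645-102672704, A_55_P2166501 at chr2:102654278-102654337 and A_55_P2064043 at chr2:102651398-102651457. The first lies 26573 bases upstream of the last along the genome, the second 21247 bases and the third 2880 bases. The 3 upstream Cd44 sequences and the upstream Prom1 sequence are shown in full, because these probes read parts of the transcripts away from the 3′ end. Each is 60 bases long.

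Cd44 A_55_P2166488: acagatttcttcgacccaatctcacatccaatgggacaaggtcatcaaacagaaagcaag
Cd44 A_55_P2166486: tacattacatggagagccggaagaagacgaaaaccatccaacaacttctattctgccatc
Cd44 A_55_P2166501: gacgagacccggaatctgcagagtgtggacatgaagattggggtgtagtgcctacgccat
Prom1 A_52_P402786: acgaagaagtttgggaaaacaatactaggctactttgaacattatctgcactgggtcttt

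From general knowledge of the gene, A_55_P2166488 and A_55_P2166486 lie in the stretch of Cd44 that holds the variant exons, and A_55_P2166501 reads the end of the coding sequence that all long-tailed forms share. No exon annotation of mm9 was used here, so the exon of each probe is not stated. The Prom1 probes lie on the reverse strand of chromosome 5, A_52_P402786 at chr5:44397410-44397469 and A_55_P2059931 at chr5:44384861-44384920, which puts the first 12549 bases upstream of the second. Each of the other probes is placed where it is first described.

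All values below are log2 signals from which the 75th percentile of the array was subtracted, so 0 is the level of that percentile, and a difference is LSC GFP+ minus LSC GFP- on that scale. Values of different probes were not compared as levels, because probes differ in how brightly they hybridize. By the flag of the scanner software, each of the 13 probes stood well above background on all 6 arrays, and no spot of the arrays was saturated. Between 39319 and 45047 of 59305 spots were well above background per array, and the 6 arrays shared a slide and a scan. A gene was called higher or lower at an unadjusted p under 0.05 in limma, and adjusted p values run over all 37008 probes tested.

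Cd44 was higher in LSC GFP+ cells and Prom1 was lower, at every probe of each gene. In this fit, which did not use the replicate numbers, the other 6 genes passed the test at none of their 7 probes. When limma held the replicate number as a block, both Bmi1 probes passed too, in a fit that called 14.8% of all probes. Without the block, 6 of the 13 probes were called, 4 higher and 2 lower, and 3, all of Cd44, when LSC GFP+ replicate 2 was left out. Over the array, 7.9% of the probes tested were called, 3.38% higher and 4.53% lower. The higher share of all calls was 42.7%, and it was 53.1% when the arrays were scaled by their median in place of the 75th percentile. The populations did not overlap at 8 of the 13 probes, against 12.3% of all probes with a value on every array. The median difference over the 13 probes was 0.35, against 0.00 over all probes tested. Cd44 alone gave 4 of the 13 probes, and probes of a gene are repeated readings, so these counts and the median lean on Cd44. Averaged over the probes of each gene, the differences ran from -0.58 for Prom1 to 1.01 for Cd44. After adjustment by limma none of the 13 probes passed, the smallest adjusted p being 0.0782, and 0.0027% of all probes did. Cd44 was chosen for description with earlier results of these samples known, so its direction here is not independent evidence.

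At the Cd44 probe farthest upstream, A_55_P2166488, LSC GFP+ replicates 1, 2 and 3 had 0.00, -0.03 and -0.06, and LSC GFP- replicates 1, 2 and 3 had -1.73, -1.44 and -1.37. The populations lay far apart and the LSC GFP+ arrays lay close together. The difference was 1.48 ± 0.19 (SE, n = 3 per population), or 2.80-fold, with an unadjusted p of 6.01e-05 and an adjusted p of 0.0782 in limma.

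The next probe, A_55_P2166486, gave -1.01, -1.03 and -0.99 in LSC GFP+ cells and -2.24, -1.63 and -1.91 in LSC GFP- cells. Here too the LSC GFP+ arrays were nearly level and the LSC GFP- arrays spread, without overlap. The difference was 0.92 ± 0.22 (SE, n = 3), or 1.89-fold, with an unadjusted p of 0.00283 and an adjusted p of 0.211 in limma.

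At A_55_P2166501, at the end of the coding sequence, the LSC GFP+ values were 2.80, 3.19 and 2.62 and the LSC GFP- values 1.89, 1.69 and 1.88. At this probe it was the LSC GFP+ arrays that spread, with replicate 2 the highest. The difference was 1.05 ± 0.22 (SE, n = 3), or 2.07-fold, with an unadjusted p of 0.00132 and an adjusted p of 0.155 in limma.

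The most 3′ probe, A_55_P2064043, gave 5.40, 5.42 and 5.32 in LSC GFP+ cells and 4.83, 5.05 and 4.43 in LSC GFP- cells. The populations did not overlap, with LSC GFP- replicate 2 the nearest to the LSC GFP+ arrays. The difference of 0.61 ± 0.22 (SE, n = 3), or 1.52-fold, had an unadjusted p of 0.0242 and an adjusted p of 0.482 in limma. The call was lost under quantile normalization (0.50, unadjusted p of 0.106) and when LSC GFP+ replicate 2 (0.59) was left out, or in LSC GFP- cells replicate 1 (0.64) or replicate 3 (0.44), whereas the other 3 Cd44 probes were called under all 18 alternatives.

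**Figure D1:**
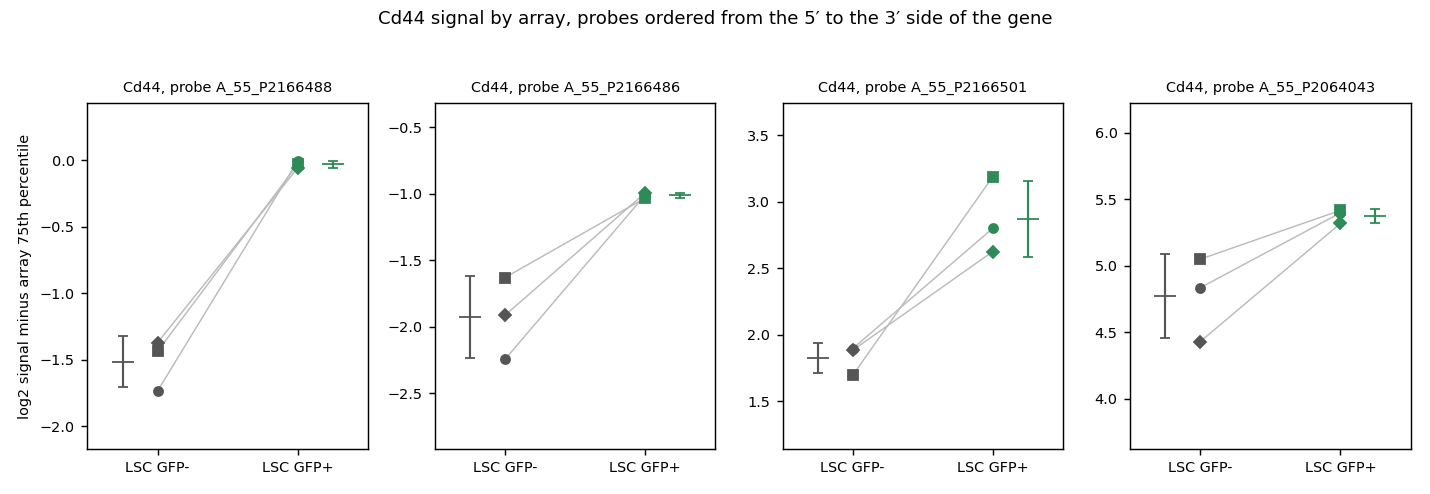
Log2 signal of the 4 Cd44 probes minus the 75th percentile of the array (y axis, with the same span in all panels) in LSC GFP- and LSC GFP+ cells (x axis). Circles, squares and diamonds are replicates 1, 2 and 3, grey lines join arrays of the same replicate number, and the bars beside the points give mean ± SD (n = 3); LSC GFP+ cells lay above LSC GFP- cells in 3 of 3 pairs at each probe, with differences from 0.61 to 1.48.

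The difference ranged from 0.61 to 1.48 over the 4 Cd44 probes. The 95% interval was 1.04 to 1.93 at A_55_P2166488, 0.55 to 1.55 at A_55_P2166501, 0.42 to 1.42 at A_55_P2166486 and 0.10 to 1.11 at the most 3′ probe. How unequal the change was between probes was measured within arrays by subtracting the most 3′ probe from each of the others. For A_55_P2166488 this gap was -5.40, -5.44 and -5.37 in LSC GFP+ cells and -6.57, -6.48 and -5.80 in LSC GFP- cells. The gap was thus higher on every LSC GFP+ array, by 0.88, with an exact two-sided permutation p of 0.1, the smallest that 3 against 3 arrays can give. For A_55_P2166501 the gap was higher by 0.44 and for A_55_P2166486 by 0.31, and in both cases the populations overlapped, with an exact permutation p of 0.3. Whether the gap differed between the probes was not tested. The inequality was smaller, though not gone, with another handling of background. With the normexp background correction the differences were 1.14 at A_55_P2166488 and 1.02 at A_55_P2166501. They were 0.60 at A_55_P2166486 and 0.62 at the most 3′ probe, so these last probes were level and the others stayed higher. The part that the offset of 50 in this correction has in the smaller differences of dim probes was not tested. Averaged over its 4 probes, Cd44 was higher in LSC GFP+ cells by 1.01 ± 0.18 (SE), with an unadjusted p of 0.000462 in limma.

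Prom1 was lower in LSC GFP+ cells at both probes. At the most 3′ one, A_55_P2059931, the LSC GFP+ values were 1.81, 2.14 and 2.32 and the LSC GFP- values 2.43, 2.67 and 2.77. The populations did not overlap, and replicate 1 was the lowest and replicate 3 the highest in each. The difference was -0.53 ± 0.22 (SE, n = 3), with an unadjusted p of 0.0403 and an adjusted p of 0.59 in limma, and LSC GFP- cells had 1.45-fold the signal of LSC GFP+ cells.

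At the upstream Prom1 probe, A_52_P402786, the values were -1.91, -1.64 and -1.29 in LSC GFP+ cells and -1.17, -1.05 and -0.71 in LSC GFP- cells, with the same order of replicates. The difference was -0.63 ± 0.24 (SE, n = 3), with an unadjusted p of 0.029 and an adjusted p of 0.514 in limma. The 2 probes thus gave like differences, with 95% intervals of -1.03 to -0.03 and -1.19 to -0.08. Within replicate numbers, the LSC GFP+ array was the lower in 3 of 3 pairs at each probe, by 0.44 to 0.62 at the first and 0.58 to 0.74 at the second. Both Prom1 calls were lost when the arrays were scaled by their median (-0.46 and -0.57) and when any of 4 arrays was left out, namely replicates 1 and 2 of LSC GFP+ and replicates 2 and 3 of LSC GFP- cells. A_55_P2059931 also lost its call without a filter on dim probes and when 1 array above background sufficed (unadjusted p of 0.0573 and 0.0505 in limma). A_52_P402786 lost it under quantile normalization (unadjusted p of 0.0564 in limma) and in the methods' t-test (p of 0.0501). Each probe was thus called under 11 of 18 alternatives, while the sign held under all 18.

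The epithelial markers Cd24a and Epcam were both close to level. Cd24a, at chr10:43303706-43303765 on the forward strand, had 5.43, 5.45 and 5.84 in LSC GFP+ cells and 5.54, 5.69 and 6.02 in LSC GFP- cells. The populations overlapped, although the LSC GFP+ array was the lower in all 3 pairs. The difference was -0.18 ± 0.22 (SE, n = 3) with a 95% interval from -0.69 to 0.34 and an unadjusted p of 0.449 in limma.

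The Epcam probe spans a splice junction, with its ends at chr17:88048972-88049800 on the forward strand. It gave 5.49, 5.76 and 5.89 in LSC GFP+ cells and 5.51, 5.77 and 5.94 in LSC GFP- cells, so arrays of the same number lay almost together. The difference was -0.03 ± 0.21 (SE, n = 3) with a 95% interval from -0.52 to 0.46 and an unadjusted p of 0.898 in limma. In the study's sort the LSC gate held cells with CD24 on their surface.

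Alcam, with a probe across a splice junction at chr16:52268908-52270785 on the reverse strand, gave 2.67, 2.95 and 3.21 in LSC GFP+ cells and 2.54, 2.47 and 2.67 in LSC GFP- cells. LSC GFP+ replicate 1 and LSC GFP- replicate 3 were level, and the other LSC GFP+ arrays were above all LSC GFP- arrays. The difference was 0.39 ± 0.21 (SE, n = 3), with a 95% interval from -0.10 to 0.87 and an unadjusted p of 0.106 in limma. Alcam passed the test without LSC GFP+ replicate 1, at 0.52, and with the normexp background correction, at 0.41.

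Bmi1 had 2 probes on the forward strand of chromosome 2, A_55_P2170335 at chr2:18607531-18607590 and A_52_P39157 at chr2:18607987-18608046. The first gave 0.34, 0.27 and 0.39 in LSC GFP+ cells and 0.02, -0.18 and 0.00 in LSC GFP- cells. The second gave -1.28, -1.07 and -1.004 in LSC GFP+ cells and -1.72, -1.35 and -1.32 in LSC GFP- cells. Neither probe showed overlap between the populations, and the LSC GFP+ array was the higher in 3 of 3 pairs at each. The differences were 0.39 ± 0.18 and 0.35 ± 0.21 (SE, n = 3), with 95% intervals from -0.03 to 0.81 and from -0.13 to 0.82 and unadjusted p values of 0.0642 and 0.133 in limma. When limma held the replicate number as a block, both passed, at unadjusted p values of 0.0303 and 0.0468, in a fit that called 14.8% of all probes and none after adjustment. The first probe also passed under quantile normalization, with an intensity trend in limma, and in the methods' t-test, where its p was 0.00554 without adjustment and 7.56% of all probes were called.

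Procr, at chr2:155580945-155581004 on the forward strand, varied more among the LSC GFP- arrays than between the populations. LSC GFP+ cells had -0.93, -0.63 and -0.44 and LSC GFP- cells -1.67, -1.20 and -0.06. The third LSC GFP- replicate was above all LSC GFP+ arrays and the other LSC GFP- arrays were below them. The difference was 0.31 ± 0.40 (SE, n = 3), with a 95% interval from -0.61 to 1.22 and an unadjusted p of 0.46 in limma. Single LSC GFP- arrays decided it, since it was 0.77, past the threshold, without LSC GFP- replicate 3 and -0.04 without LSC GFP- replicate 1.

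Abcg2, at chr6:58642312-58642371 on the forward strand, was likewise uneven. LSC GFP+ cells had -1.82, -1.41 and -1.70 and LSC GFP- cells -1.09, -1.97 and -0.94, so LSC GFP- replicate 2 was the lowest of the 6 arrays and the other LSC GFP- arrays the highest. The difference was -0.31 ± 0.30 (SE, n = 3), with a 95% interval from -1.003 to 0.39 and an unadjusted p of 0.336 in limma. Without LSC GFP- replicate 2 it was -0.63 and passed the threshold.

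**Figure D2:**
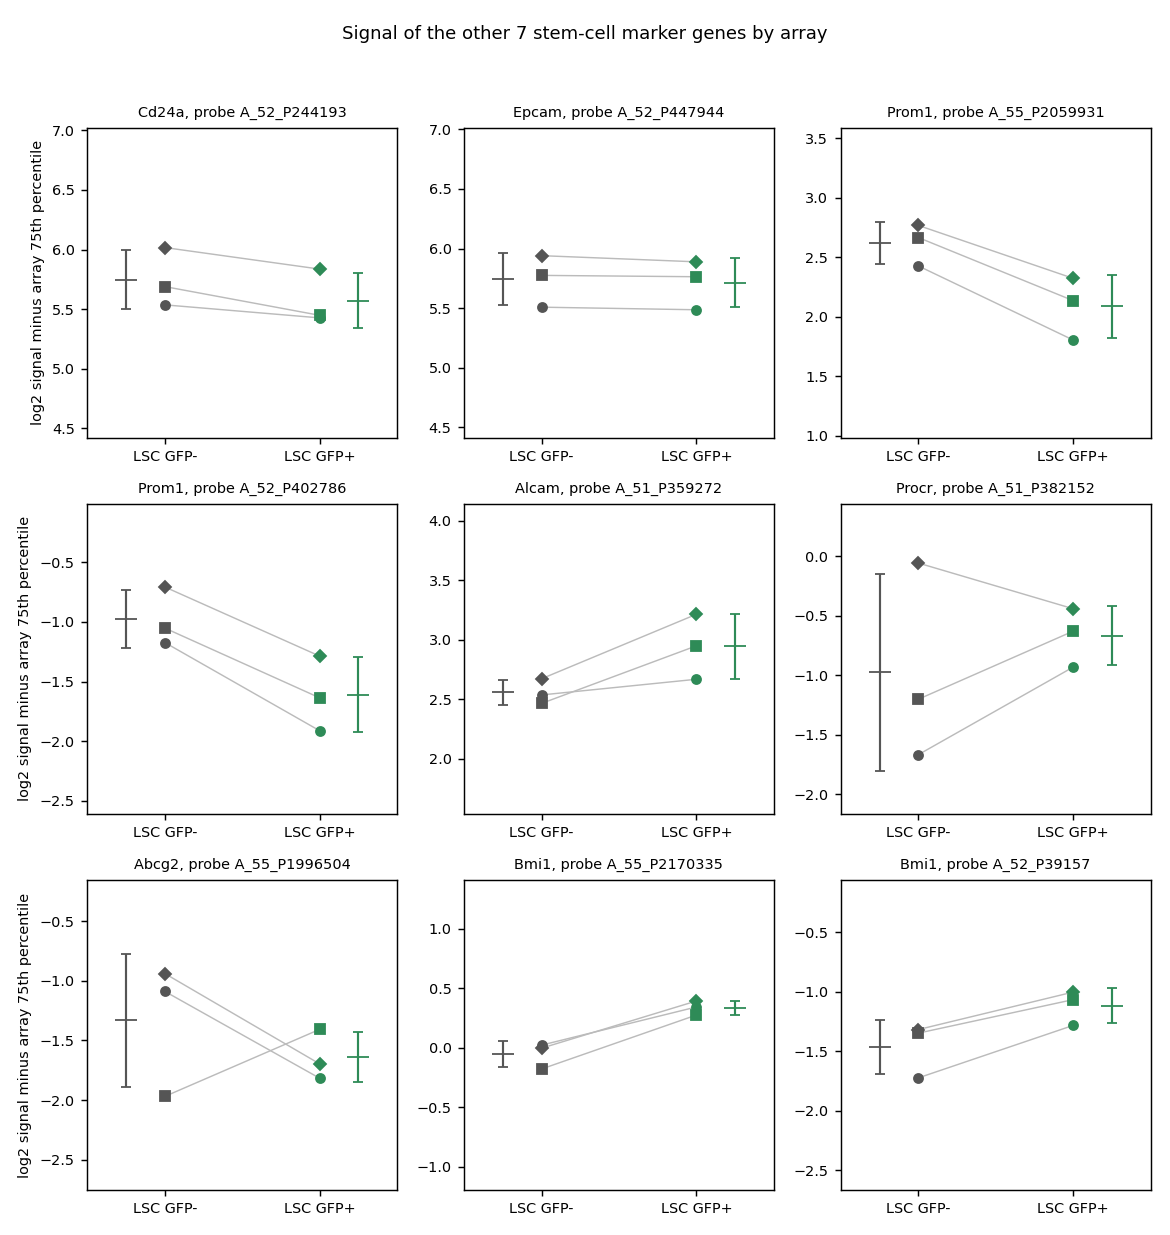
Log2 signal of the 9 probes of Cd24a, Epcam, Prom1, Alcam, Procr, Abcg2 and Bmi1 minus the 75th percentile of the array (y axis, with the same span in all panels) in LSC GFP- and LSC GFP+ cells (x axis). Circles, squares and diamonds are replicates 1, 2 and 3, grey lines join arrays of the same replicate number, and the bars beside the points give mean ± SD (n = 3); the lines run down in parallel for Prom1 and up for Bmi1, converge for Procr and cross for Abcg2.

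**Figure D3:**
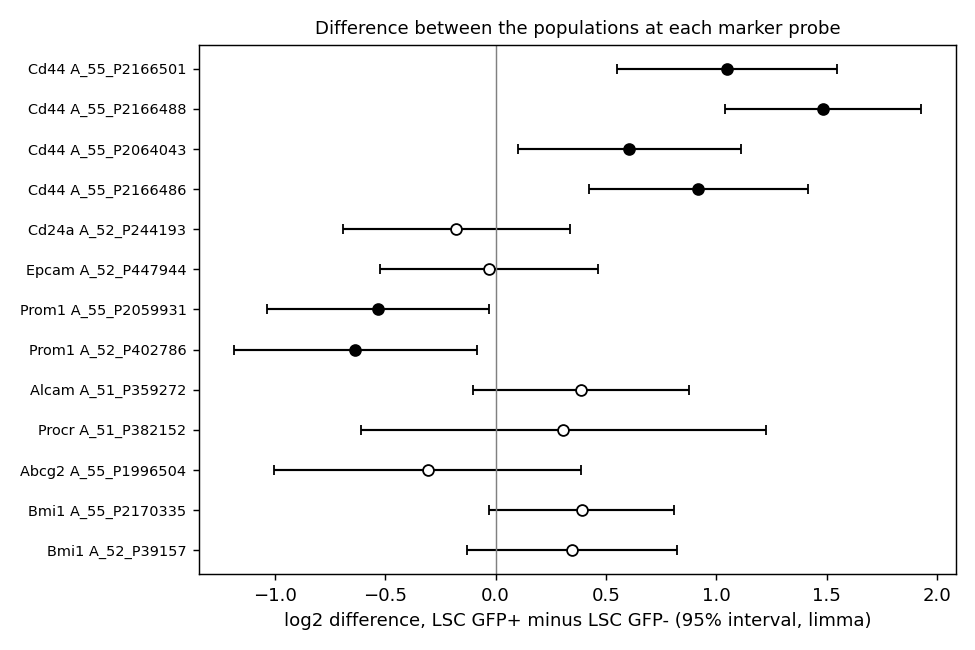
Difference of the populations, LSC GFP+ minus LSC GFP-, at each of the 13 probes (x axis, log2 units) with its 95% interval from limma (bars), each from 3 arrays per population. Filled circles are the 6 probes past an unadjusted p of 0.05, with all 4 Cd44 probes to the right of 0 and both Prom1 probes to the left.

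Across the 6 arrays, the genes whose signal ran most like that of a marker were sought among the 33850 probes above background throughout, as a description without a test. Closest to Cd44 at its brightest probe were Zbtb11 (r = 0.991), Kansl1l, Hoxa11os, Xpo4 and Cebpa (r = 0.978). Of these, Xpo4, a nuclear transport receptor, and Cebpa, a transcription factor, were themselves called higher in LSC GFP+ cells, by 0.85 each. Closest to Prom1 were Pde1a, a phosphodiesterase, and Dpp4, the surface peptidase CD26, both with r = 0.997 and both called lower, by -1.57 and -1.13. Bmi1 ran most like Coq10b and Nab2, which were called higher by 0.50 and 0.63. Cd24a was followed by Narf and Sec61b, Epcam by Pcyt1a and Afg3l1, Alcam by Ctsc and Slc10a7, Procr by Zfp202 and Gm5176, and Abcg2 by Sap30l and Fastk, none of them called. With 6 arrays and this many probes, the highest r was 0.982 or above for all 8 genes. Among the markers themselves, the highest r was that of Cd24a and Epcam (r = 0.815 over 6 arrays), and the lowest that of Cd44 and Prom1 (r = -0.804). Both Cd24a and Epcam rose from replicate 1 to replicate 3 in each population, so the first value follows the replicate numbers. The 6 points come from 2 populations, so the second value restates their differences. Likewise, genes picked for running like Cd44, Prom1 or Bmi1 on these arrays tend to share the difference of that marker. Their calls are therefore not separate evidence.

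The genes that work with the markers were taken from 10 lists, of which 102 genes were tested at the probe with the highest mean signal. Of these, LSC GFP+ cells had 10 higher and 6 lower, against 3.38% and 4.29% of all 25616 genes taken the same way, whose median difference was -0.01. None passed after adjustment in limma. With the replicate block 14 were higher and 10 lower, in a fit that called 14.8% of all probes against 7.9% without the block. Without LSC GFP+ replicate 2, 6 were higher, and without LSC GFP- replicate 2, 5 were. Over all probes these runs called 908 and 877 higher, against 1250 with every array.

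Of 14 tested ligands, hyaluronan enzymes, linker proteins and proteases, 2 were higher, 0 lower and 12 not called, with a median difference of 0.03. Vcan encodes versican, a proteoglycan that binds hyaluronan. It had 5.82, 5.86 and 5.58 in LSC GFP+ cells and 4.70, 4.31 and 4.43 in LSC GFP- cells, a difference of 1.27 ± 0.20 (SE, n = 3) with an unadjusted p of 0.000253 and an adjusted p of 0.0994 in limma. Has3, a synthase of hyaluronan, had 2.98, 3.17 and 2.32 in LSC GFP+ cells and 1.81, 1.36 and 1.08 in LSC GFP- cells, a difference of 1.40 ± 0.29 (SE, n = 3) with an unadjusted p of 0.00147 and an adjusted p of 0.165 in limma. The synthase Has1 was not called, at -0.33, and Has2 as well as the ligand gene Spp1 and the protease gene Mmp9 were not well above background on any array. Ezr, Rdx and Msn, whose products tie CD44 to the actin cortex, had differences of -0.21, 0.42 and -0.49, and the proteases Adam10 and Adam17, which cleave CD44, had 0.00 and 0.06. None of these 5 was called. With the replicate block, which called 14.8% of all probes, 4 genes of the list were higher.

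Of 5 regulators of Cd44 splicing none was called, and their median difference was 0.12. Esrp1, an epithelial splicing factor that promotes inclusion of the variant exons, had 3.09, 3.78 and 3.81 in LSC GFP+ cells and 3.04, 3.34 and 3.62 in LSC GFP- cells, with a difference of 0.23 ± 0.27 (SE, n = 3) and an unadjusted p of 0.427 in limma. Its relative Esrp2 had a difference of 0.08.

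Of 8 tested genes for other sort markers of the prostate, 1 was lower and 7 were not called. Kit, the receptor of stem cell factor, had -0.99, 0.02 and -0.29 in LSC GFP+ cells and 0.35, 0.45 and 0.23 in LSC GFP- cells, a difference of -0.76 ± 0.28 (SE, n = 3) with an unadjusted p of 0.0263 and an adjusted p of 0.495 in limma. Ly6a (Sca-1) and Itga6 (CD49f), the genes of the gate, had differences of -0.36 (unadjusted p of 0.458) and 0.25 (unadjusted p of 0.289) in limma. The call of Kit was lost with median scaling, in the methods' t-test, and without replicate 1 of LSC GFP+ or replicates 1 or 2 of LSC GFP- cells. Ly6a ranged from 1.71 to 3.51 in LSC GFP+ cells and from 2.52 to 3.55 in LSC GFP- cells, so it spread more within the populations than between them.

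Of 14 stem-cell markers of other tissues, 2 were higher and 2 lower, with a median difference of 0.04. Lgr5 and Lgr6, receptors of R-spondins, were higher by 0.94 ± 0.25 and 1.21 ± 0.23 (SE, n = 3), with unadjusted p values of 0.00549 and 0.000786 in limma. The study had named both from these same samples. Cd34 was lower by -1.26 ± 0.52 (SE, n = 3), with an unadjusted p of 0.0421 in limma and overlap between the populations. Nt5e (CD73) was not well above background on any LSC GFP+ array and was at least 1.90-fold higher in LSC GFP- cells, with an adjusted p of 0.273 in limma. It passed the filter on dim probes through the LSC GFP- arrays alone, so its count among the lower genes carries no weight, and 1 gene of the list was lower when a probe had to be well above background on all 6 arrays. Thy1, Eng, Sox9 and Aldh1a1 were among the 10 not called, with differences of -0.88, -0.19, 0.47 and 0.08. With the replicate block, which called 14.8% of all probes, 4 genes of the list were higher, and with median scaling 1 was lower. When the probes of each gene were averaged, 1 gene of the list was higher, so at most 1 of Lgr5 and Lgr6 kept its call.

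Of 11 tested partners of EpCAM, 2 were higher and 9 not called. Cldn1, a tight junction claudin, was higher by 0.75 and Fhl2, a transcriptional cofactor that binds the intracellular part of EpCAM, by 0.63, whereas Cldn7, the claudin that binds EpCAM, had -0.23 and was not called. The median of the list was -0.12, and neither call held without replicate 2 of LSC GFP+ or of LSC GFP- cells. Of 13 tested relatives and ligands of ALCAM, 3 were lower and 10 not called. All 3 are adhesion molecules of the immunoglobulin family, namely Ncam1 (-1.25 ± 0.27), L1cam (-0.99 ± 0.28) and Vcam1 (-0.98 ± 0.22; SE, n = 3 for each), with unadjusted p values of 0.00194, 0.00812 and 0.00202 in limma. Mcam, another of that family, had a difference of 0.12 and was not called.

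Around Procr, 2 of 8 tested genes of protein C and thrombin signaling were higher. Thbd, the thrombin receptor with which the protein C receptor works, was higher by 1.16 ± 0.45 and F2r, the thrombin receptor PAR1, by 0.86 ± 0.30 (SE, n = 3), with unadjusted p values of 0.033 and 0.0206 in limma. Neither call held without replicate 2 of LSC GFP+ or of LSC GFP- cells, or in the methods' t-test. Of 8 tested prominin relatives and efflux transporters 1 was called. This was Abcc4, which exports cyclic nucleotides among other substrates, higher by 1.23 ± 0.23 (SE, n = 3) with an unadjusted p of 0.000731 in limma. Prom2, the relative of Prom1, had 0.32 and was not called, and Abcg3 and Abcb1b were not well above background on any array.

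Bmi1 stood among PRC1 genes of which 1 of 17 was called. Scmh1, a Polycomb subunit of the Scm family, was higher by 0.55 ± 0.22 (SE, n = 3), with an unadjusted p of 0.0351 in limma, and the catalytic subunits Ring1 and Rnf2 had 0.15 and -0.17. The call of Scmh1 was lost without replicates 1 or 3 of LSC GFP+ or replicates 1 or 2 of LSC GFP- cells. The median over PRC1 was 0.06. Of the PRC2 genes Ezh1, Ezh2, Suz12 and Eed none was called, with differences of -0.23, 0.27, 0.30 and 0.19, and Cdkn2a, the locus that Bmi1 represses, did not pass the filter on dim probes.

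**Figure D4:**
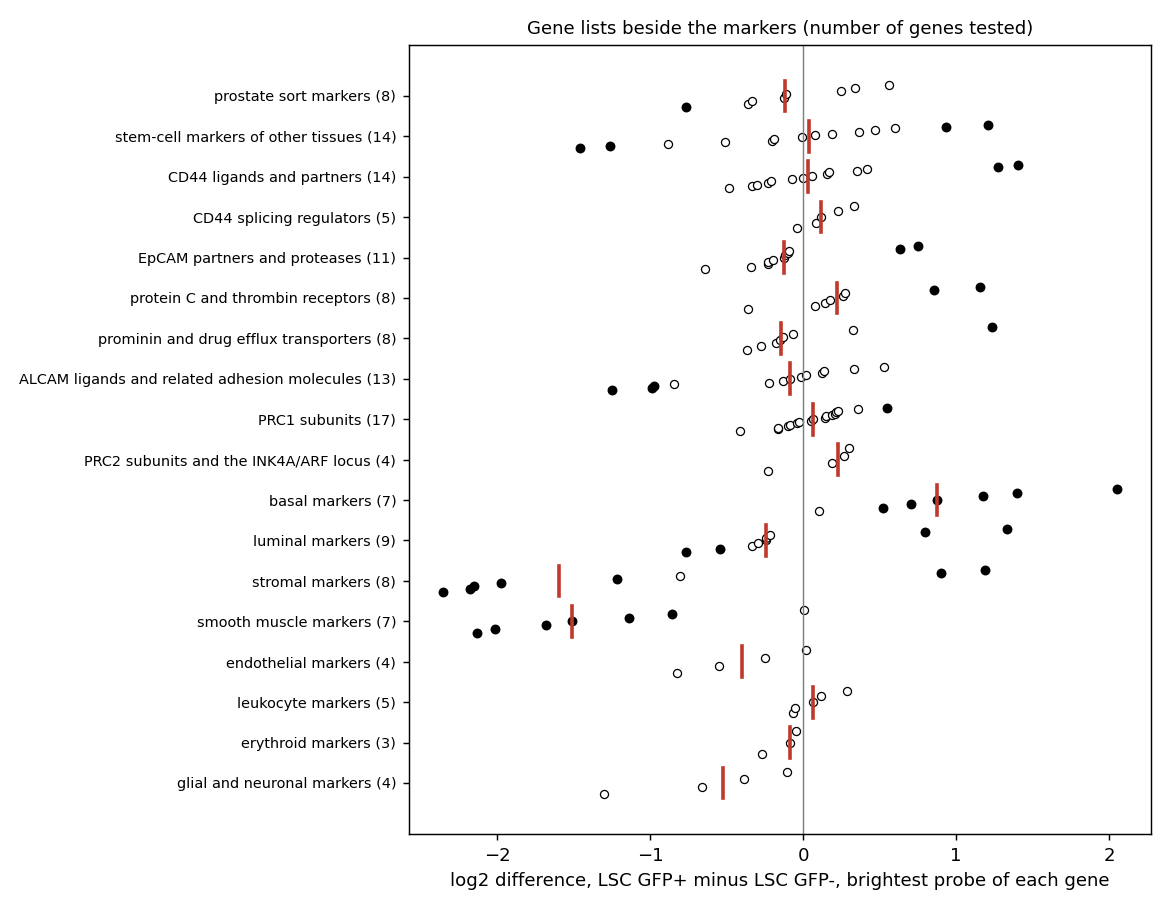
Difference between LSC GFP+ and LSC GFP- cells (x axis, log2 units) for the genes of 10 lists beside the markers and of 8 cell type lists (rows, number of genes tested in brackets), each at its brightest probe. Filled circles passed an unadjusted p of 0.05 in limma, red lines are list medians; most lists of marker partners centre near 0, while basal markers lie to the right and stromal and smooth muscle markers to the left.

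Basal, smooth muscle and stromal markers differed between the populations. The sort removed cells with CD31, CD45 or Ter119 and kept those with Sca-1 and CD49f, a gate that by the study's account leaves out stroma, which lacks CD49f, and the bright GFP+ vascular smooth muscle cells, which have little of either protein. In bulk RNA, fewer cells of a type and less RNA per cell cannot be told apart. Of 7 tested basal markers 6 were higher in LSC GFP+ cells and 0 lower, with a median difference of 0.88. The log2 of their summed signals, called the summed level here, was 7.71 to 7.86 in LSC GFP+ cells against 7.28 to 7.40 in LSC GFP- cells. Bright probes weigh most in a summed level. Dsc3, a desmosomal cadherin, had the highest difference among the basal markers at 2.05, and Krt5 was higher by 0.70. Trp63, the p63 gene and the brightest of the basal markers, had 0.11 and was not called. From these samples the study had counted Krt5, Krt14 and Trp63 among the transcripts enriched in LSC GFP+ cells. The value of Trp63 given here, unlike that account, is not a call, and it is that of its brightest probe alone. Of 9 luminal markers 2 were higher, Hoxb13 among them, and 2 lower (Cldn3 and Tmprss2; 0 lower with median scaling), and their summed level overlapped, at 6.79 to 7.33 and 6.89 to 7.38.

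Of 7 smooth muscle markers 6 were lower in LSC GFP+ cells, with a median difference of -1.51. Their summed levels were 2.78 to 3.37 in LSC GFP+ cells against 4.31 to 5.22 in LSC GFP- cells. Acta2, smooth muscle actin, was lower by -2.13. Of 8 stromal markers 5 were lower, 2 (Dcn and Fbln1) were higher and 1 was not called, with summed levels of 4.61 to 4.97 and 4.58 to 5.98. Pdgfra, 1 of the 5, was well above background on only 2 LSC GFP+ arrays. It passed the filter on dim probes through the LSC GFP- arrays alone, so its count among the lower genes carries no weight. No endothelial, leukocyte, erythroid or glial and neuronal marker was called in 4, 5, 3 and 4 genes tested. With the replicate block, which called 14.8% of all probes, 2 glial and neuronal genes were lower. These were Tubb3 by -1.299, with an unadjusted p of 0.00117 in limma against 0.236 without the block, and Sox10 by -0.66, with 0.0257 against 0.135. In that list 3 genes were lower without LSC GFP- replicate 2, and 1 endothelial gene was lower without replicate 1 of either population. The endothelial genes Cdh5 and Emcn did not pass the filter on dim probes, and no array had the leukocyte gene Lyz2 well above background, while the erythroid gene Hba-a1 was measured in both populations. The part that the basal, stromal and smooth muscle markers have in the differences of Cd44 and Prom1 was not tested.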

How the data were processed

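RNA of sorted cells was amplified (Ovation Pico WTA), labeled with Cy3 and hybridized to SurePrint G3 Mouse arrays. Per the file headers and the methods, the authors quantified the spots with Feature Extraction 11.0.1.1, whereas the submitters' processing notes name version 10.7.3.1. The deposited intensity values are linear processed signals, background-subtracted and detrended, and not normalized between arrays. The deposited table of the whole series holds the same intensity values rounded to within 0.5%. Probe positions are those of the array design (mm9).

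From the log2 of each signal the array's 75th percentile over probe spots was subtracted, outlier spots (123 to 154 per array) were left out, and spots of a probe were averaged. The filter kept probes whose flag put them well above background throughout 1 population or both (3 arrays each). They were tested with lmFit and eBayes of limma 3.58.1 (R 4.3.3), two-sided, with Benjamini-Hochberg adjustment. The script was tested on simulated data. Probes were named through their transcript in RefSeq (GRCm38.p6, names only), which matched 26582 of 55681 probes, and otherwise by the array design. Nothing in the labels says whether the samples came from separate animals or pools, so p values measure the spread between these samples. Their number limits the precision, and the smallest exact permutation p for 3 against 3 arrays is 0.1.

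Across probes, the deviations from the population means correlated at 0.43, 0.28 and 0.67 for replicates 1, 2 and 3. Between unlike replicate numbers they correlated at -0.55 to 0.22, so replicate 2 was little above the highest of these. The replicate numbers of the labels were therefore read as pairs in the figures, in the pair counts and in the replicate block. The main fit did not use them, so its SE, intervals, p values and calls leave the pairing out. The markers and gene lists were chosen with earlier results of these data known. Some genes of the lists are counted but not reported by name here. The genes named are the 8 markers, members of the lists, and, over the 6 arrays, the 5 genes most correlated with Cd44 and the 2 most correlated with each other marker. Alternatives were normexp with an offset of 50, quantile and median scaling, the rounded values, 3 other filters, outlier spots kept, the methods' t-test, an intensity trend, the replicate block, the mean over probes of a gene, and each array left out in turn.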

Additional observations from a re-analysis of the deposited data

How the results depend on the processing

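Over the 13 probes and their alternatives, 197 values kept both direction and side of the threshold, 18 kept the direction but lost the call, 9 gained it and 5 changed sign. The sign changes were those of Epcam, at 0.0087 with normexp, 0.041 with median scaling and -0.14 to 0.085 with arrays left out, and of Procr, at -0.038 to 0.77 with arrays left out. Of Cd44, 3 or 4 probes were called under every alternative. With the replicate block the calls over all probes rose from 1250 to 2494 higher and from 1675 to 2985 lower, and the genes of the 10 lists called lower from 6 to 10. Beside the calls of Bmi1 given above, the block changed the call of no marker probe. Leaving out 1 array gave 3 to 6 called marker probes (3 without LSC GFP+ replicate 2), 877 to 1378 probes higher, 1169 to 2795 lower (2795 without LSC GFP+ replicate 1), and 5 to 12 list genes higher and 4 to 9 lower (higher in 6 without LSC GFP+ replicate 2 and 5 without LSC GFP- replicate 2). The higher share of all calls was 42.7%, 53.1% with median scaling, 56.4% in the methods' t-test and 31.0% without LSC GFP+ replicate 1. Median scaling moved the median difference of all probes by 0.07. The cause of these changes was not tested. With 3 arrays per population the intervals of Procr and Abcg2 span 1.83 and 1.39 log2 units.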
